A study of Mus musculus with 56 samples.

Results

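The nuclear-encoded subunits of complexes II to V of the mitochondrial respiratory chain were followed in gastrocnemius muscle of mice. The members were the protein-coding genes whose mouse symbol begins with Uqcr, Atp5 or Cox4 to Cox8, or is Sdha, Sdhb, Sdhc or Sdhd. The rule used no measured value. It took 48 of the 57010 rows of the gene count table, which carry 47 symbols because Atp5o stands on 2 rows. Of these, 4 belong to complex II, 8 to complex III, 18 to complex IV and 18 to complex V. A further 8 rows whose symbols matched are processed pseudogenes and were left out. The symbol rule also takes Cox7a2l, a factor that joins complexes into supercomplexes, and Atp5s, a factor associated with the ATP synthase.

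Mice were 20 to 22 weeks old, and every mouse, controls included, carried Cre recombinase under the Mlc1f promoter, which is active in skeletal muscle fibres, and a GFP-tagged L10A ribosomal protein that Cre switches on. The mice labelled HuR knockouts also carried floxed alleles of Elavl1, the gene of the RNA-binding protein HuR, and are called labelled knockouts here. From each of 28 mice, ribosomal RNA (RNA recovered with the tagged ribosomes of the fibres) and total RNA (RNA of the whole muscle homogenate) were sequenced from the 3' end of transcripts. The 56 libraries form 8 groups of 7, which are ribosomal RNA of male labelled knockouts, male controls, female labelled knockouts and female controls, and total RNA of the same mice. Total RNA holds every cell type of the muscle, so fewer cells of a type and less RNA per cell cannot be told apart in it.

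Complex II oxidizes succinate and passes the electrons to ubiquinone. Complex III moves them on to cytochrome c and pumps protons, complex IV gives them to oxygen and pumps protons, and complex V, the ATP synthase, makes ATP as protons flow back through its ring of c subunits. All complex II subunits are nuclear-encoded, whereas complexes III, IV and V each also need subunits encoded in mitochondrial DNA. Several complex IV subunits have a heart and skeletal muscle isoform and a broadly expressed one, each from its own gene.

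Of the 48 rows, 43 had counts high enough to be tested. The other rows were Cox4i2, a hypoxia-responsive isoform, with 193 counts in all 56 libraries, Cox6b2 and Cox7b2, isoforms known from testis, with 104 and 11 counts, and Cox8c and the second Atp5o row with 0 counts. Levels are given as CPM, counts scaled to a common library size after edgeR's TMM normalization. Each transcript gives about 1 tag at its 3' end, so CPM was not divided by length. The most abundant members in ribosomal RNA were Atp5g3, which encodes the c subunit, at 3889 CPM, Atp5e, the epsilon subunit, at 2540 CPM, Atp5a1, the catalytic-head alpha subunit, at 2245 CPM, and Uqcrh, the complex III hinge protein, at 2210 CPM, as means over the 28 ribosomal libraries. The lowest of the 43 were Atp5l, the g subunit, at 11.1 CPM, Atp5g2 at 14.1 CPM and Atp5s at 16.1 CPM. Reads that aligned to several places, 14.0% to 23.8% of the reads per library, were not counted in genes, so the levels of genes with near-identical pseudogene copies (Atp5l, Atp5k, Cox6c, Uqcrh and Atp5c1) are uncertain. Members took 3.93% ± 0.53 of counts in male labelled knockouts and 3.92% ± 0.34 in male controls in ribosomal RNA, and 3.11% ± 0.19 in female labelled knockouts and 3.74% ± 0.37 in female controls (SD, n = 7 each).

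The upstream sequences of a pair of muscle isoform genes and of their broadly expressed partners are shown because each pair holds a muscle isoform and a broadly expressed form of the same complex IV subunit. Each line is the 250 bases before the annotated start, 5' to 3' on the gene's strand, with CpG dinucleotides in capitals. They are RefSeq sequences of the mouse assembly GRCm38.p6, at chr7:30183921-30184170 on the plus strand for Cox7a1, chr7:140900447-140900696 on the minus strand for Cox8b, chr9:79759854-79760103 on the minus strand for Cox7a2 and chr19:7217617-7217866 on the minus strand for Cox8a.
Cox7a1: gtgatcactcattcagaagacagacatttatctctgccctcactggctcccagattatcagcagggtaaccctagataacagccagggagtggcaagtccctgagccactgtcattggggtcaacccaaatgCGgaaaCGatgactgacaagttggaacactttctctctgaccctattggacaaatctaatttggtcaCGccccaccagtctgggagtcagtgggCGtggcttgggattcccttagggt
Cox8b: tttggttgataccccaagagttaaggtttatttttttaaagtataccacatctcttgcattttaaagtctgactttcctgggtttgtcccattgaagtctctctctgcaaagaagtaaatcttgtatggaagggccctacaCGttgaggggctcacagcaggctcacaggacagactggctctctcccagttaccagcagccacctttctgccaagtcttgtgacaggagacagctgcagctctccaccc
Cox7a2: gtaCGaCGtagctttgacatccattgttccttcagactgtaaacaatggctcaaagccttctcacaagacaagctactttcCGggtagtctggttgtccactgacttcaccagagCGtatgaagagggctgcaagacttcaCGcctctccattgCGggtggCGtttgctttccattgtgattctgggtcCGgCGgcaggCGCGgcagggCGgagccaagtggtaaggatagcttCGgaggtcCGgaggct
Cox8a: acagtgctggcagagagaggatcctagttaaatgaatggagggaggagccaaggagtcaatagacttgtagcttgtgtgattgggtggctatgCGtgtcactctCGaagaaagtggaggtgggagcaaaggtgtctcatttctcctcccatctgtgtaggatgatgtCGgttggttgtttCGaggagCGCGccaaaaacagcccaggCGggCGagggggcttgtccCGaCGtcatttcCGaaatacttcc
Cox7a1 and Cox8b, the muscle isoforms, hold 4 and 1 CpG in these windows, against 14 and 11 in Cox7a2 and Cox8a. RefSeq windows were found for 34 member symbols, 37 windows in all. They had a median of 13 CpG, against 6 over all 32851 promoters of the same length. The NRF1 motif (GCGCA, any base, then GCGC, so that its letters contain CpG) lay in 7 of the 37 windows, or 18.9%, against 3.7% of all promoters. An E-box (CANNTG) lay in 62.2% of member windows against 66.2% of all, the ERR half-site (AAGGTCA) in 5.4% against 4.1%, and TATAAA in 5.4% against 12.4%. All motifs were read on both strands, and overlapping matches of different motifs were each counted. These are matches of letters, not binding sites.

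The muscle isoforms Cox6a2 and Cox8b made up most of their pairs in all 8 groups. By group mean, the muscle isoform Cox7a1 did so in ribosomal RNA but not in total RNA. Cox8b made up 96.5% ± 1.42 of Cox8a plus Cox8b counts in ribosomal RNA of male labelled knockouts, 96.7% in male controls, 98.5% in female labelled knockouts and 97.7% in female controls, and between 93.1% and 94.9% in the total RNA groups (means, n = 7 each). Cox6a2, the muscle isoform of subunit VIa, took between 96.5% and 97.9% of Cox6a1 plus Cox6a2 in the ribosomal groups and between 94.4% and 96.4% in the total groups. For Cox7a1, the muscle isoform of subunit VIIa, the share differed more between the RNA types than for any of the other isoform pairs described here. It was 64.4% ± 2.83 in ribosomal RNA of male labelled knockouts and 66.2% ± 6.09 in male controls, and 77.7% ± 3.74 in female labelled knockouts and 73.0% ± 9.03 in female controls. In total RNA the same groups had 48.5% ± 1.68, 47.3% ± 1.23, 47.3% ± 3.04 and 46.5% ± 1.81. Among the c-ring genes, which encode the same mature c subunit, Atp5g3 held 89.3% to 93.0% in ribosomal groups and 85.2% to 86.9% in total groups. Atp5g1 held 6.74% to 10.3% and 12.6% to 14.2%, and Atp5g2 0.30% to 0.41% in ribosomal groups and 0.50% to 0.59% in total groups. On the common scale of all 56 libraries, Cox4i1, the main isoform of subunit IV, averaged 838 to 992 CPM in the ribosomal groups and 477 to 497.5 CPM in the total groups, while the group medians of Cox4i2 lay between 0 and 1.87 CPM. These shares are descriptions and were not tested.

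**Figure D1:**
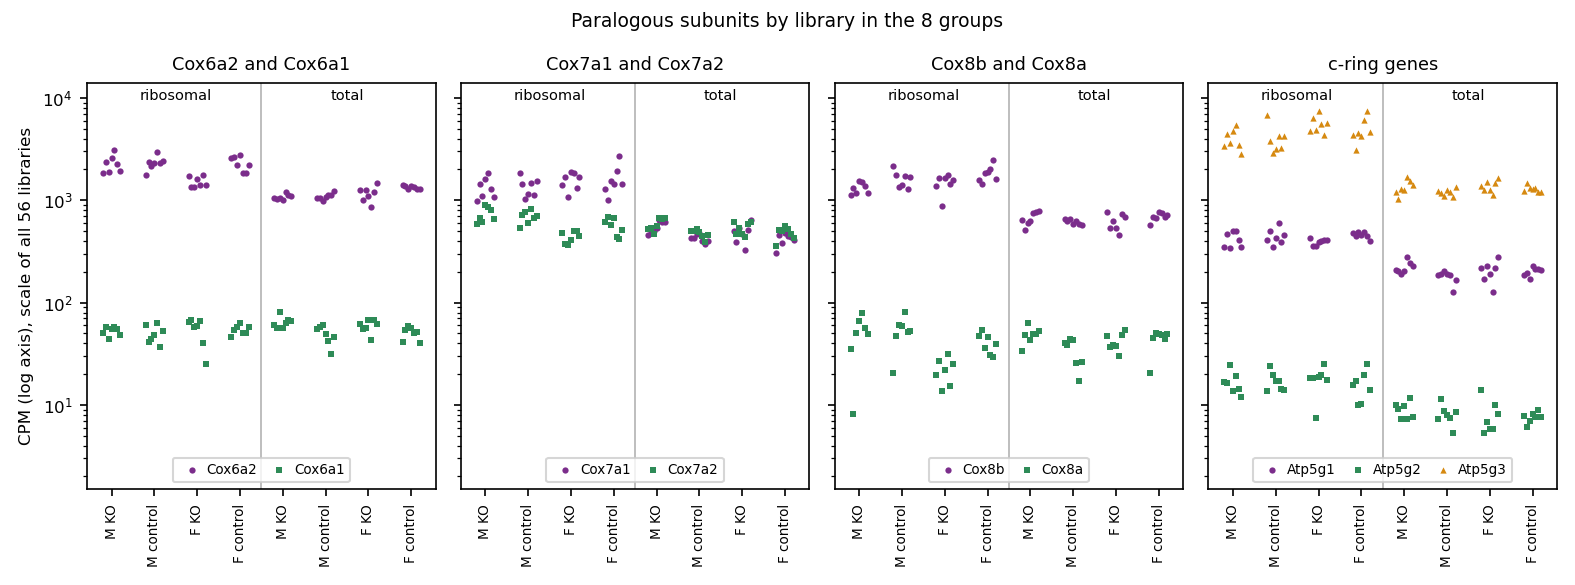
CPM on a log axis, on the common scale of all 56 libraries, for Cox6a2 and Cox6a1, Cox7a1 and Cox7a2, Cox8b and Cox8a, and the c-ring genes Atp5g1, Atp5g2 and Atp5g3, with each point 1 library of the 8 groups of 7 (ribosomal groups left, total groups right; M male, F female). Cox6a2 and Cox8b stood far above their partners in each group, and Cox7a1 exceeded Cox7a2 in ribosomal RNA but not in total RNA by group median.

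Depth and purity of the libraries differed and touch the results below. Counts in genes ranged from 160313 to 3579221 in ribosomal libraries and from 2427655 to 5848058 in total libraries, and 7 ribosomal libraries had under 750000 (female labelled knockouts 2, 6 and 12, female controls 18 and 19, male labelled knockout 2 and male control 20). Reads aligned outside genes made up 4.82% to 12.5% of ribosomal libraries and 9.54% to 23.4% of total libraries, and 5 total libraries had over 19% (female labelled knockout 9, female control 14 and male controls 25, 26 and 27). The summed level of 10 muscle fibre markers averaged 117900 to 196000 CPM in the ribosomal groups and 45730 to 51040 CPM in the total groups, with no marker at 0 in any group. The floxed exons are not given in the sources used here, so the 3' tags of Elavl1 need not cover the exons that Cre removes and may be no check of the labels. Elavl1 was 43.5 to 95.8 CPM (median 66.6) in ribosomal RNA of male labelled knockouts and 45.1 to 66.1 CPM (median 59.4) in male controls, and 79.1 to 138 CPM (median 105) in female labelled knockouts and 65.6 to 107 CPM (median 87.6) in female controls. The log2 differences were 0.29 (edgeR's quasi-likelihood test, Benjamini-Hochberg adjusted p = 0.234) and 0.27 (adjusted p = 0.206) in ribosomal RNA of males and females, and −0.14 (adjusted p = 0.477) and −0.01 (adjusted p = 0.969) in total RNA.

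With TMM scaling, most members stood higher in ribosomal RNA than in total RNA of the same mice. Called means an adjusted p under 0.05 in edgeR's quasi-likelihood test with Benjamini-Hochberg adjustment over all genes tested. Of the 43 members, 40 were called higher and 1 lower in male labelled knockouts, where 68.3% of 12546 genes were called in either direction (31.1% higher, 37.1% lower). In male controls 40 were higher and 1 lower, against 70.7% of genes called (32.1% higher, 38.6% lower). Female labelled knockouts had 26 higher and 6 lower members, against 64.8% of genes called (26.6% higher, 38.2% lower), and female controls 36 higher and 1 lower, against 68.1% (30.1% higher, 38.1% lower). The median log2 ratio of the members, ribosomal over total, was 0.89, 1.02, 0.67 and 0.86 in these groups in that order, against −0.06, −0.09, −0.25 and −0.12 over all genes. Ribosomal libraries all lay above the total libraries for 32 of the 43 members in male labelled knockouts, against 13.3% of the 12546 genes, and for 31 in male controls, against 15.9%. The same held for 20 members in female labelled knockouts, against 13% of genes, and for 27 in female controls, against 16.1%.

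The counts depended on the scaling, because the RNA types differ in make-up. Without a composition factor, the medians of all genes moved to −0.43, −0.53, −0.93 and −0.61. The calls were then 28 higher and 2 lower in male labelled knockouts, 30 and 2 in male controls, 12 and 20 in female labelled knockouts, and 22 and 7 in female controls. Relative to the median of all genes, 41, 42, 35 and 42 of the 43 members stood higher under each of the 3 scalings tried. The medians of members minus all genes were 0.95, 1.11, 0.92 and 0.98 with TMM, and 0.92, 1.07, 0.89 and 0.91 without a composition factor. A change of scaling moves all genes of a comparison almost equally. These relative values could therefore hardly differ between scalings, and their agreement is no check of the scaling. Markers of cells without the tagged ribosome moved the other way. The sum of 8 fibroblast and matrix genes averaged 347 to 984 CPM in ribosomal groups and 2717 to 4267 CPM in total groups, and that of 8 endothelial genes 73.7 to 154 CPM against 398.5 to 478 CPM. Their part in the members' ratios was not tested.

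**Figure D2:**
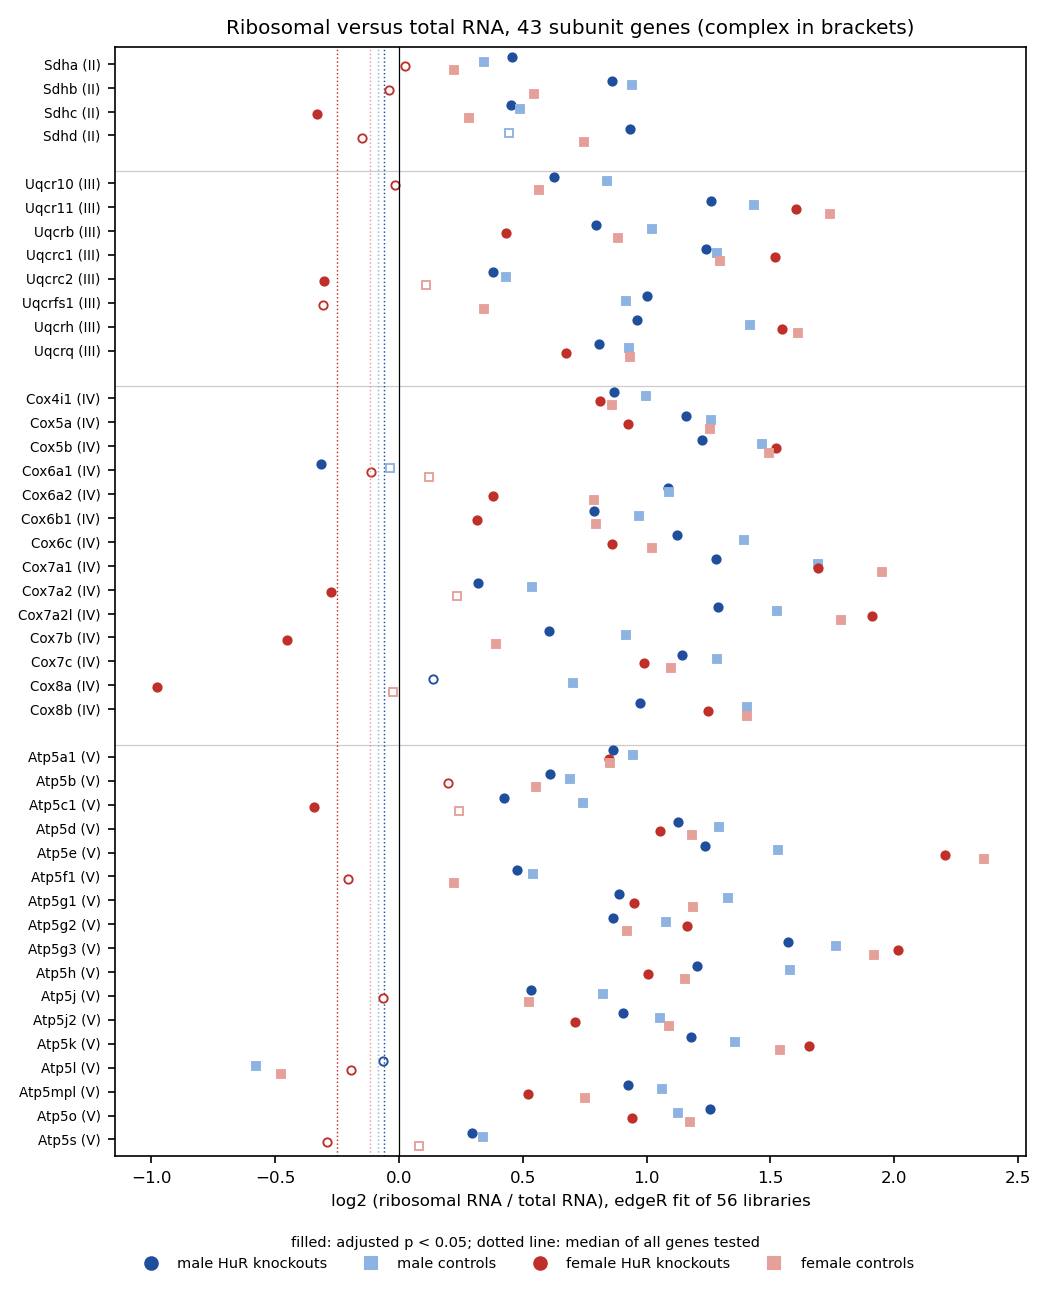
Log2 ratio of ribosomal over total RNA (x axis) for the 43 tested members, by complex (y axis), from 1 edgeR fit of 56 libraries; circles are labelled knockouts, squares controls, blue male and red female, filled where the adjusted p is under 0.05, and dotted lines are the medians of all genes. Most members lie right of 0, with Atp5e, Atp5g3, Cox7a1 and Cox7a2l farthest right. In female labelled knockouts 15 members lie left of 0, of which Sdhc, Cox7b, Cox8a, Atp5c1, Uqcrc2 and Cox7a2 are called.

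Among the 26 members called higher in all 4 groups, the c-ring gene Atp5g3 had 2842 to 5483 CPM (median 3627) in ribosomal RNA and 1036 to 1674 CPM (median 1280) in total RNA of male labelled knockouts, and 4325 to 7516 CPM (median 5590) against 1131 to 1656 CPM (median 1381) in female labelled knockouts. The ribosomal and total libraries did not overlap in either sex. Its log2 ratio was 1.57 in male labelled knockouts (adjusted p = 1.74e-13), 1.77 in male controls (adjusted p = 2.62e-15), 2.01 in female labelled knockouts (adjusted p = 5.04e-17) and 1.92 in female controls (adjusted p = 1.69e-16). Atp5e, the epsilon subunit of the ATP synthase stalk, had ratios of 1.24, 1.53, 2.21 and 2.37 in the same order of groups. In female labelled knockouts it had 2526 to 5035 CPM (median 4028) in ribosomal RNA and 714 to 1042 CPM (median 790) in total RNA. The muscle isoform Cox7a1 had ratios of 1.28, 1.69, 1.69 and 1.95, while its partner Cox7a2 had 0.32, 0.54, −0.27 and 0.23. The Cox7a2 ratio in female controls was not called (adjusted p = 0.0702), and that in female labelled knockouts was called lower (adjusted p = 0.0381). Cox7a1 kept its direction without a composition factor in each group, while Cox7a2 then turned to −0.08 in male labelled knockouts.

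For subunit VIII, the muscle isoform Cox8b had log2 ratios of 0.97, 1.404, 1.25 and 1.404 in male labelled knockouts, male controls, female labelled knockouts and female controls, all called. Cox8a, the broadly expressed form, had 0.14 (adjusted p = 0.528) and 0.70 (adjusted p = 0.000663) in the male groups, and −0.98 (adjusted p = 0.000677) and −0.03 (adjusted p = 0.918) in the female groups. Cox6a2 had 1.09, 1.09, 0.38 and 0.79, all called. The value of Cox6a2 in female labelled knockouts turned to −0.32 without a composition factor. Cox6a1 had −0.32, −0.04, −0.11 and 0.12, of which only the first was called (adjusted p = 0.0295). Cox7a2l, the supercomplex factor, had 1.29, 1.53, 1.91 and 1.79, and Cox4i1 had 0.87, 0.997, 0.81 and 0.86, all called. Of the other members among the largest rises, Uqcr11, a small complex III subunit, had 1.26, 1.44, 1.60 and 1.74, and Atp5k, the e subunit of the ATP synthase, 1.18, 1.36, 1.66 and 1.54. Atp5h, the d subunit of its stator, had 1.20, 1.58, 1.004 and 1.16, and Atp5o, the stator protein that confers oligomycin sensitivity, 1.26, 1.13, 0.94 and 1.18, all called. Atp5g1 had 0.89, 1.33, 0.95 and 1.19 and Atp5g2 had 0.86, 1.08, 1.16 and 0.92, all called. The inhibitor of the ATP synthase, Atpif1, which is no member by the symbol rule, had 0.53, 0.76, 0.63 and 0.64, all called.

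By complex, complex II had the lowest median ratio in each group. The medians of complexes II, III, IV and V were 0.66, 0.88, 1.03 and 0.89 in male labelled knockouts, 0.47, 0.98, 1.18 and 1.06 in male controls, −0.10, 0.55, 0.84 and 0.85 in female labelled knockouts, and 0.41, 0.91, 0.94 and 0.92 in female controls. Sdha, the flavoprotein that oxidizes succinate, had ratios of 0.46, 0.34, 0.03 and 0.22 in the same order of groups, and the female labelled knockouts' value was not called (adjusted p = 0.812). Sdhb, the iron-sulfur subunit, had 0.86, 0.94, −0.04 and 0.55, again not called in female labelled knockouts (adjusted p = 0.818). Sdhc, which anchors the complex in the inner membrane, was called higher at 0.45, 0.49 and 0.28 in the other groups and lower at −0.33 (adjusted p = 0.0147) in female labelled knockouts. Sdhd, the second anchor, had 0.93, 0.45, −0.15 and 0.75, of which the first and last were called. The female controls' values of Sdha and Sdhc and the male controls' value of Sdha turned negative without a composition factor.

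The 6 members lower in ribosomal than in total RNA of female labelled knockouts were Cox8a at −0.98, Cox7b at −0.45 (adjusted p = 0.00993), Atp5c1 at −0.34 (adjusted p = 0.0251), Sdhc at −0.33, Uqcrc2 at −0.30 (adjusted p = 0.0129) and Cox7a2 at −0.27. Cox7b is a small complex IV subunit, Atp5c1 the rotating gamma subunit of the ATP synthase, and Uqcrc2 a core protein of complex III. Without the 7 ribosomal libraries under 750000 counts, the calls of Cox7b (−0.36, adjusted p = 0.0591) and Sdhc (−0.23, adjusted p = 0.114) were lost. The 1 lower member in male controls was Atp5l, at −0.58 (adjusted p = 0.0018), and this value became −0.21 (adjusted p = 0.25) without the 5 total libraries above 19% of reads outside genes. Atp5l was also the lower member in female controls, at −0.48 (adjusted p = 0.0224). Complex I subunits, taken as a list of 37 for comparison, had 34 higher and 1 lower in male labelled knockouts, 36 and 1 in male controls, 25 and 6 in female labelled knockouts, and 30 and 1 in female controls. The 2 tested partner subunits encoded in mitochondrial DNA, mt-Co1 of complex IV and mt-Cytb of complex III, were called lower in ribosomal RNA in all 4 groups, with log2 ratios between −4.58 and −1.69.

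In ribosomal RNA of females, 8 of the 43 members were lower in labelled knockouts than in controls and 0 were higher. The background was 16.8% of 9098 genes called in either direction, 8.44% higher and 8.41% lower, against 18.6% of members. At an unadjusted p under 0.05 there were 18 members, against 2808 of all genes, and DESeq2 called 13 members and 1608 genes. The median log2 difference of members was −0.16, against −0.02 over all genes, and 32 of the 43 values were negative. Complex II had 2 of 4 lower, complex III 2 of 8, complex IV 3 of 14 tested and complex V 1 of 17 tested, with median log2 differences of −0.55, −0.20, −0.11 and −0.12.

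In complex II, both Sdhb and Sdhc were lower. The iron-sulfur subunit Sdhb had 337 to 497 CPM (median 392) in female labelled knockouts, against 411 to 803 CPM (median 615) in female controls. Its groups overlapped, with 4 of 7 labelled knockouts below every control, and the log2 difference was −0.57 (SE 0.16, adjusted p = 0.0114). The membrane anchor Sdhc had 149 to 205 CPM (median 175) in labelled knockouts, against 199 to 333 CPM (median 236) in controls. For Sdhc, 6 of 7 labelled knockouts lay below every control, and the log2 difference was −0.56 (SE 0.13, adjusted p = 0.00211). Sdhd had 97.2 to 156 CPM (median 150) in labelled knockouts, against 125 to 279 CPM (median 191) in controls, and its difference of −0.54 was not called (adjusted p = 0.0565). The flavoprotein Sdha had 371 to 465 CPM (median 417), against 379 to 536 CPM (median 507), with a difference of −0.21 that was not called (adjusted p = 0.161).

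In complex III, the Rieske iron-sulfur protein Uqcrfs1 had 326 to 439 CPM (median 362) in female labelled knockouts, against 349 to 744 CPM (median 519) in female controls. Of the labelled knockouts, 3 of 7 lay below every control, and the log2 difference was −0.55 (SE 0.17, adjusted p = 0.0207). This call was lost without female control 14 (−0.49, adjusted p = 0.052) or without female control 15 (−0.45, adjusted p = 0.0694). Uqcr10, a small accessory subunit, had 334 to 548 CPM (median 492) in labelled knockouts, against 492 to 758 CPM (median 666) in controls. It was below every control in 4 of 7 labelled knockouts, 1 of them equal to the lowest control when rounded, with a log2 difference of −0.48 (SE 0.14, adjusted p = 0.0124). The core proteins Uqcrc1 and Uqcrc2 had differences of 0.20 (adjusted p = 0.284) and −0.35 (adjusted p = 0.0595).

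In complex IV, the muscle isoform Cox6a2 had 1173 to 1472 CPM (median 1249) in female labelled knockouts, against 1574 to 2244 CPM (median 1817) in female controls. All 7 labelled knockouts lay below every control, and the log2 difference was −0.55 (SE 0.13, adjusted p = 0.00414). Cox7b had 315 to 485 CPM (median 423) in labelled knockouts, against 441 to 794 CPM (median 659) in controls. It was below every control in 5 of 7 labelled knockouts, with a log2 difference of −0.66 (SE 0.16, adjusted p = 0.00318). The broadly expressed isoform Cox8a had 11.9 to 26.4 CPM (median 19) in labelled knockouts, against 25.7 to 43.9 CPM (median 32.1) in controls, so that 6 of 7 lay below every control. Its log2 difference was −0.96 (SE 0.25, adjusted p = 0.00637), at a level that rests on few counts per library. The other named isoforms did not pass the test: Cox8b at −0.27 (adjusted p = 0.225), Cox7a2 at −0.30 (adjusted p = 0.0977), Cox7a1 at −0.00 (adjusted p = 0.996), Cox6a1 at 0.06, Cox4i1 at 0.01 and Cox7a2l at 0.06.

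In complex V, the gamma subunit Atp5c1 had 175 to 246 CPM (median 219) in female labelled knockouts, against 257 to 388 CPM (median 307) in female controls. The groups did not overlap, and the log2 difference was −0.57 (SE 0.12, adjusted p = 0.0014). Atp5b, the catalytic beta subunit, also had groups that did not overlap, at 821 to 896 CPM (median 841) against 916 to 1137 CPM (median 1050), but its difference of −0.28 missed the threshold (adjusted p = 0.0524). Cox6a2, Atp5c1 and Atp5b were the 3 of 43 members whose labelled knockouts all lay below every control, which held for 1.46% of the 9098 genes. The c-ring genes had differences of −0.17 (Atp5g1), 0.37 (Atp5g2) and 0.24 (Atp5g3), none called, and Atpif1 had 0.12 (adjusted p = 0.608).

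**Figure D3:**
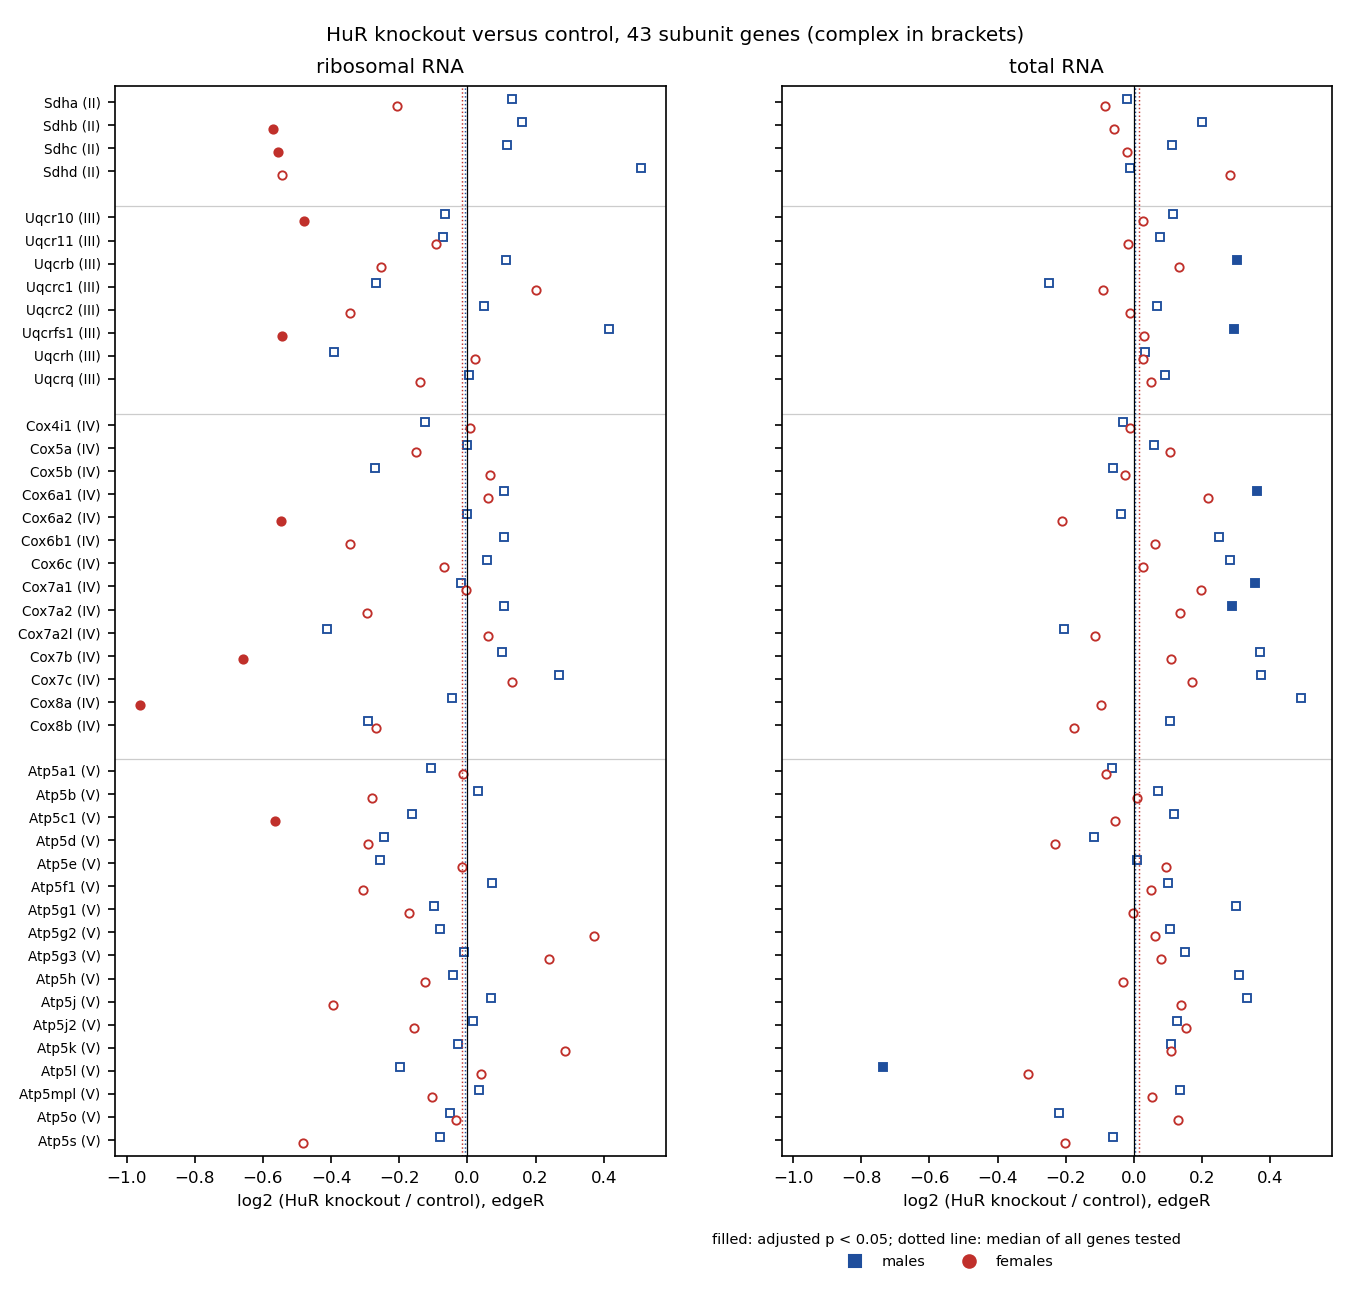
Log2 difference of labelled knockouts over controls (x axis) for the 43 tested members by complex (y axis), in ribosomal RNA (left panel) and total RNA (right panel); squares are males, circles females, filled where the adjusted p is under 0.05, and dotted lines are the medians of all genes. The filled circles left of 0 in ribosomal RNA are the 8 members lower in females, and the filled squares in total RNA are the 6 members called in males.

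**Figure D4:**
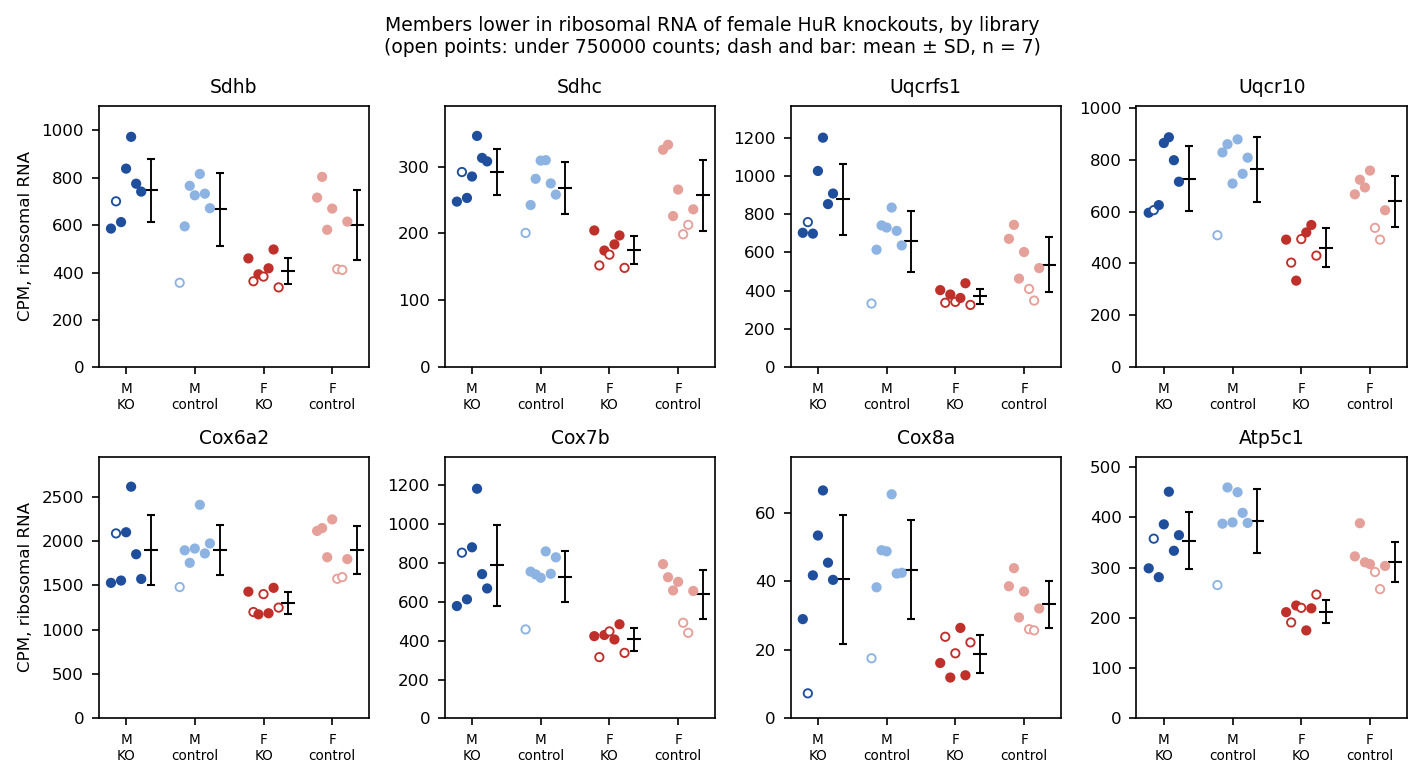
CPM in ribosomal RNA (y axis, from 0) by library for the 8 members called in females, in the 4 ribosomal groups of 7 (M male, F female); open points are libraries under 750000 counts, and dash and bar are mean and SD. The female labelled knockouts lie low in every panel, male labelled knockouts and male controls overlap, and open points among female controls are low for each gene.

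Several measures moved with the female ribosomal difference. Female controls 18 and 19, with 575174 and 422756 counts, were the 2 lowest of the 7 controls for all 8 called members. Without the 7 ribosomal libraries under 750000 counts the 8 calls remained and 11 members were called. The female labelled knockouts left had 936900 to 1207021 counts and the female controls left 1516216 to 3058801. This cut therefore does not part depth from genotype, and the part of depth was not tested. The mRNAs encoded in mitochondrial DNA summed to 6006 to 27660 CPM (mean 14690) in female labelled knockouts, against 1635 to 7179 CPM (mean 3891) in female controls. That sum went with genotype in females, so a fit with it as a covariate does not cleanly part it from genotype. In such a fit, 9 members were called. Of the 8, Cox7b (−0.64, adjusted p = 0.0358), Cox6a2 (−0.57, adjusted p = 0.0172) and Atp5c1 (−0.53, adjusted p = 0.0327) were still called, while Sdhb (−0.32, adjusted p = 0.344), Sdhc (−0.40, adjusted p = 0.125), Uqcrfs1 (−0.30, adjusted p = 0.414), Uqcr10 (−0.27, adjusted p = 0.332) and Cox8a (−0.84, adjusted p = 0.123) were not. In the same comparison 6 of 6 endothelial genes, 7 of 8 fibroblast and matrix genes and 5 of 5 erythroid genes were called higher. These are markers of other cells, among which 0 of 4 adipocyte genes tested were called. Of markers of the fibres themselves, 6 of 7 slow fibre genes and 3 of 10 muscle fibre genes were called higher. The fibroblast and matrix sum ranged over 502 to 1805 CPM against 331 to 525 CPM in controls, the endothelial sum over 79.9 to 291 CPM against 52.5 to 111 CPM, the erythroid sum over 334 to 1248 CPM against 156 to 309 CPM, and the slow fibre sum over 6352 to 12200 CPM against 3829 to 7002 CPM. No gene of these lists was at 0 in either group. Their part in the members' difference was not tested. Without a composition factor the median of all genes moved to −0.24 and 19 members were called lower.

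In ribosomal RNA of males, 0 of the 43 members were called in either direction, against 8.96% of 9098 genes (4.09% higher, 4.87% lower). At an unadjusted p under 0.05 there were 6 members and 2070 genes, and DESeq2 called 0 members and 883 genes. The median log2 difference of members was −0.01, equal to that of all genes to 2 decimals, and complex II had a median of 0.15. Values of the members called in females were −0.00 for Cox6a2, 0.10 for Cox7b, −0.04 for Cox8a, −0.16 for Atp5c1, −0.07 for Uqcr10, 0.16 for Sdhb and 0.12 for Sdhc. Uqcrfs1 had 699 to 1200 CPM (median 853) in male labelled knockouts, against 333 to 835 CPM (median 713) in male controls, a difference of 0.41 that was not called (adjusted p = 0.109). Male control 20, with 704646 counts, was the lowest control for Uqcrfs1, Sdhb, Cox7b and Atp5c1. Erythroid genes were called higher at 5 of 5 in males as in females, slow fibre genes at 2 of 7 and adipocyte genes at 1 of 4. Of 6 endothelial, 8 fibroblast and matrix, 4 smooth muscle and pericyte, 3 macrophage, 3 Schwann cell and 10 muscle fibre genes tested, 0 were called in males.

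The difference between the sexes in ribosomal RNA was tested directly. For the effect in males minus that in females, 4 of 43 members were called higher and 0 lower, against 3.43% of 9098 genes (1.89% higher, 1.54% lower). At an unadjusted p under 0.05 there were 17 members and 1885 genes, DESeq2 called 7 members and 373 genes, and the median was 0.14 for members and −0.00 for all genes. Sdhd had 148 to 249 CPM (median 219) in male labelled knockouts and 76.6 to 215 CPM (median 160) in male controls, with a difference between the sexes of 1.05 (SE 0.28, adjusted p = 0.0287). Uqcrfs1 had a difference between the sexes of 0.96 (SE 0.23, adjusted p = 0.0185). Cox7b had 0.76 (SE 0.22, adjusted p = 0.0416) and Sdhc 0.67 (SE 0.17, adjusted p = 0.0275). The called members are both complex II anchors, the Rieske protein and a small complex IV subunit. All 4 calls were lost with the sum of mitochondrially encoded mRNAs as a covariate (Sdhd 0.92, adjusted p = 0.233; Uqcrfs1 0.75, adjusted p = 0.177; Cox7b 0.74, adjusted p = 0.17; Sdhc 0.52, adjusted p = 0.269). That sum went with genotype in females, so this fit does not cleanly part it from genotype. Without the ribosomal libraries under 750000 counts, Sdhd was lost (0.97, adjusted p = 0.0562).

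In total RNA of males, 5 of 43 members were higher in labelled knockouts and 1 was lower, against 14.2% of 12860 genes called (6.83% higher, 7.36% lower). At an unadjusted p under 0.05 there were 16 members and 3867 genes, and DESeq2 called 6 members and 2073 genes. The median of members was 0.11 and that of all genes 0.00. Called higher were 2 members of complex III and 3 of complex IV, and the 1 lower member was of complex V. Without a composition factor 1 member was called higher (Cox7a1) and 1 lower (Atp5l).

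The muscle isoform Cox7a1 had 559 to 762 CPM (median 643) in male labelled knockouts, against 453 to 577 CPM (median 514) in male controls, with 5 of 7 labelled knockouts above every control. Its log2 difference was 0.36 (SE 0.11, adjusted p = 0.028). Its partner Cox7a2 had 567 to 805 CPM (median 672) against 478 to 631 CPM (median 595), with 5 of 7 above every control and a difference of 0.29 (SE 0.10, adjusted p = 0.0467). Both isoforms of subunit VIIa were thus higher. Cox6a1, the broadly expressed isoform of subunit VIa, had 67.0 to 97.8 CPM (median 74.2) in labelled knockouts, against 38.7 to 73.5 CPM (median 59.2) in controls, with 4 of 7 above every control. The log2 difference of Cox6a1 was 0.36 (SE 0.12, adjusted p = 0.0382), whereas Cox6a2 had −0.04 (adjusted p = 0.784).

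In complex III, the accessory subunit Uqcrb had 438 to 702 CPM (median 613) in male labelled knockouts, against 381 to 540 CPM (median 487) in male controls, with a log2 difference of 0.30 (SE 0.10, adjusted p = 0.0454). Uqcrfs1 had 511 to 702 CPM (median 661) against 389 to 594 CPM (median 541), with a difference of 0.29 (SE 0.09, adjusted p = 0.0339). For each, 5 of 7 labelled knockouts lay above every control. Atp5l, the g subunit of the ATP synthase, was the 1 lower member, with 11.9 to 18.7 CPM (median 15.1) against 17.4 to 41.0 CPM (median 22.8) and a difference of −0.74 (SE 0.16, adjusted p = 0.00311). Of the labelled knockouts, 5 of 7 lay below every control for Atp5l. Controls 25, 26 and 27, with over 19% of reads outside genes, had 33.9, 41.0 and 31.3 CPM of Atp5l, and the other controls had 17.4 to 22.8 CPM.

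Without the 5 total libraries above 19% of reads outside genes, none of the 43 members was called in total RNA of males. The log2 differences were then 0.26 for Cox7a1 (adjusted p = 0.152), 0.18 for Cox6a1 (adjusted p = 0.358), 0.19 for Cox7a2 (adjusted p = 0.298), 0.19 for Uqcrb (adjusted p = 0.342), 0.17 for Uqcrfs1 (adjusted p = 0.281) and −0.37 for Atp5l (adjusted p = 0.0887). The count of called members also moved when single libraries were left out. It was 10 without female labelled knockout 9 or male control 22, 3 without male labelled knockout 10, 2 without male labelled knockout 12, and 1 without male labelled knockout 13 or 14 or male control 25, 26 or 27. Fibroblast and matrix genes were called higher at 8 of 8 and erythroid genes at 5 of 5 in this comparison. Tendon genes were called higher at 2 of 3, macrophage genes at 1 of 6 and adipocyte genes at 1 of 5. Of 8 endothelial, 6 smooth muscle and pericyte, 5 Schwann cell, 10 muscle fibre and 7 slow fibre genes, 0 were called. Kidney genes were called higher at 2 of 2 tested. The sum of 4 kidney genes was 5.42 to 852 CPM in male labelled knockouts, highest in number 6, and 1.72 to 79.6 CPM in male controls. The fibroblast and matrix sum was 3358 to 5060 CPM in male labelled knockouts and 2290 to 3439 CPM in male controls, and its part in the result was not tested.

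**Figure D5:**
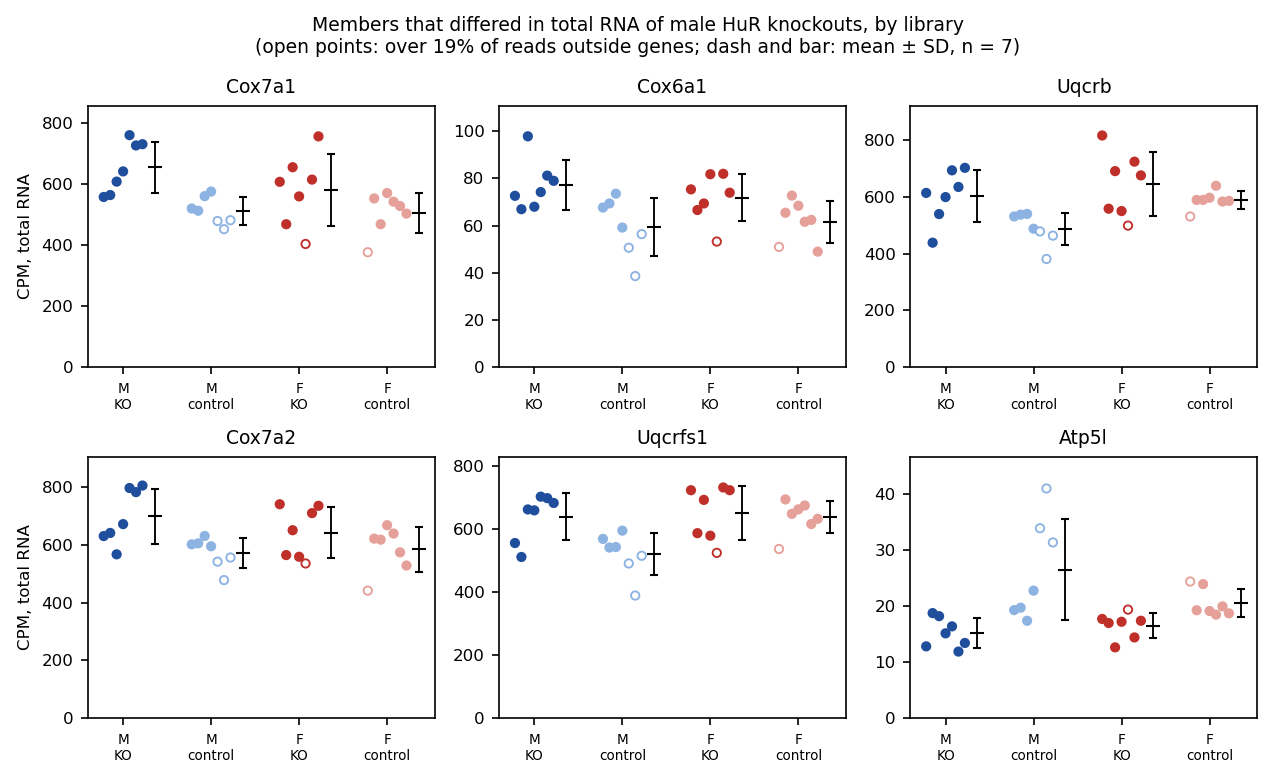
CPM in total RNA (y axis, from 0) by library for the 6 members called in males, in the 4 total groups of 7 (M male, F female); open points are libraries with over 19% of reads outside genes, and dash and bar are mean and SD. For Atp5l the 3 open points of male controls are the highest of that group.

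In total RNA of females, 0 of 43 members were called, against 8.49% of 12860 genes (3.79% higher, 4.7% lower). At an unadjusted p under 0.05 there were 2 members and 3032 genes, DESeq2 called 0 members and 1262 genes, and the median was 0.03 for members and 0.015 for all genes. Differences of the complex II subunits were −0.09 for Sdha, −0.06 for Sdhb, −0.02 for Sdhc and 0.28 for Sdhd, and Cox6a2 had −0.21 (adjusted p = 0.106). Leaving out female labelled knockout 5 gave 1 called member, and leaving out female labelled knockout 12 gave 2. For the effect in males minus that in females in total RNA, 0 members were called, as were 0% of 12860 genes (0% higher, 0% lower), with 3 members and 1225 genes at an unadjusted p under 0.05 and 0 members and 22 genes by DESeq2.

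The effect in ribosomal RNA minus that in total RNA was tested in 1 model over both RNA types. In males 0 of 43 members were called, against 0.128% of 12546 genes (0.0319% higher, 0.0956% lower), with 5 members and 1110 genes at an unadjusted p under 0.05 and 0 members and 48 genes by DESeq2. In females 3 members were lower and 0 higher, against 3.46% of genes (1.85% higher, 1.61% lower), with a median of −0.24 for members and −0.01 for all genes. At an unadjusted p under 0.05 there were 18 members and 2286 genes, and DESeq2 called 3 members and 498 genes. The levels below are scaled within each RNA type, so ribosomal and total values are not on 1 scale. Cox7b, at 315 to 485 CPM in ribosomal RNA of female labelled knockouts and 441 to 794 CPM in controls, had 476 to 1014 CPM (median 835) in total RNA of female labelled knockouts and 542 to 800 CPM (median 757) in controls. Its ribosomal minus total difference was −0.84 (SE 0.22, adjusted p = 0.0214). Sdhc had 225 to 386 CPM (median 324) against 278 to 351 CPM (median 318) in total RNA, and a ribosomal minus total difference of −0.61 (SE 0.17, adjusted p = 0.0289). Uqcr10 had 505 to 836 CPM (median 683) against 483 to 730 CPM (median 649) in total RNA, and −0.58 (SE 0.18, adjusted p = 0.0466). The total libraries of labelled knockouts and controls overlapped for all 3. With the mouse as a block, so that each mouse's libraries were compared with each other, only Cox7b was called (−0.80, adjusted p = 0.0464), while Sdhc had −0.58 (adjusted p = 0.0615) and Uqcr10 −0.58 (adjusted p = 0.0825). Without the ribosomal libraries under 750000 counts 6 members were called, all lower, and without the 5 total libraries above 19% of reads outside genes 8 were, all lower. Some markers of other cells were called higher for the same difference in females, as were mt-Co1 and mt-Cytb. These were 5 of 8 endothelial genes, 3 of 5 Schwann cell genes, 3 of 6 smooth muscle and pericyte genes and 2 of 8 fibroblast and matrix genes. Of 5 erythroid, 6 macrophage, 5 adipocyte and 3 tendon genes, 0 were called. Among fibre markers, 2 of 10 muscle fibre genes and 1 of 7 slow fibre genes were called higher. The part of all these genes in the result was not tested.

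Between male and female controls, 0 of 43 members were called in ribosomal RNA, against 7.63% of 9098 genes (4.25% higher, 3.37% lower), with 3 members and 2055 genes at an unadjusted p under 0.05 and 1 member and 748 genes by DESeq2. In total RNA 3 members were lower in males and 0 higher, against 8.7% of 12860 genes (4.75% higher, 3.95% lower). Cox6a2 had 1195 to 1502 CPM (median 1311) in male controls and 1555 to 1727 CPM (median 1637) in female controls. All male controls lay below every female control, as for 1.63% of the 12860 genes, and the log2 difference, males over females, was −0.30 (SE 0.08, adjusted p = 0.0178). Atp5h had 74.5 to 115 CPM (median 95.2) in male controls and 92.0 to 136 CPM (median 120) in female controls, with a difference of −0.36 (SE 0.11, adjusted p = 0.0309). Uqcrfs1 had 389 to 594 CPM (median 541) and 536 to 693 CPM (median 647), with a difference of −0.29 (SE 0.09, adjusted p = 0.0458). Without the libraries above 19% of reads outside genes, Cox6a2 remained called (−0.35, adjusted p = 0.00919), and Atp5h (−0.24, adjusted p = 0.151) and Uqcrfs1 (−0.21, adjusted p = 0.162) did not.

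Other genes of the respiratory chain were read as lists beside the members. In ribosomal RNA of female labelled knockouts, 1 of 36 tested complex I subunits was higher and 6 were lower (median −0.18), 2 of 74 mitochondrial ribosomal protein genes were higher and 10 lower (median −0.03), and 0 of 35 assembly factors of complexes II to V were higher and 2 lower (median −0.11). The lower assembly factors were Tmem70, which builds the ATP synthase, at −0.49, and Uqcc1, which builds complex III, at −0.39. Among subunits and carriers outside the symbol rule, Cycs, the mobile electron carrier cytochrome c, was lower at −0.43 (adjusted p = 0.012), while Cyc1, the cytochrome c1 of complex III, had −0.50 (adjusted p = 0.0548) and Ndufa4, a complex IV subunit, −0.41 (adjusted p = 0.056). Against these, mt-Co1 and mt-Cytb were higher, at 2.05 and 2.10. In males, 0 complex I subunits were higher and 1 lower, 3 mitochondrial ribosomal protein genes were higher and 3 lower, and 2 assembly factors were higher and 3 lower. In total RNA of males, 3 of 37 complex I subunits were higher and 0 lower, 12 of 75 mitochondrial ribosomal protein genes were higher and 3 lower, and the assembly factors Cox16, Atpaf2 and Cox17 were higher at 0.70, 0.55 and 0.47 while Cox19 was lower at −0.35. In total RNA of females, 0 of 37 complex I subunits were called, and 3 mitochondrial ribosomal protein genes were higher and 0 lower.

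HuR is known for binding AU-rich sequence in 3' untranslated regions, so the annotated 3' untranslated regions of members were measured in the GRCm38 annotation. They were short, with a median of 186 nucleotides over the 43 tested members, against 1013 over 11373 tested protein-coding genes. The shortest was that of Cox8b, at 43 nucleotides, and the longest was that of Atp5g1, at 4252. The pentamer ATTTA (read on the transcript's strand) was present in 20 members, or 46.5%, against 66.9% of all tested protein-coding genes. Of the 8 members lower in ribosomal RNA of female labelled knockouts, Sdhc had 7 copies in 2636 nucleotides, Cox7b 3 in 627, Uqcrfs1 2 in 423, Sdhb, Cox6a2 and Cox8a 1 each in 91, 294 and 236, and Uqcr10 and Atp5c1 0 in 203 and 162. A match of these letters is a description of the sequence and says nothing of binding.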

How the data were processed

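The deposited table holds raw read counts per gene for 56 libraries, with no normalization by the authors. Per the labels' protocols, libraries were made with the Lexogen QuantSeq 3' kit from 500 ng of RNA and read over 50 bases. Total RNA came from a Trizol extract of homogenate, and ribosomal RNA from a published procedure for tagged ribosomes. UMI-tools, STAR, HTSeq, DESeq2 1.40.1 and R 4.3.0 are named with the genome GRCm39, per the submitters' processing notes; their settings are not given in the sources used here. The 5 summary lines of HTSeq stayed out of library sizes and tests, and 0 columns of per-sample values were left unused.

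Symbols came from tables of the GRCm38.p6 annotation, which matched 52029 identifiers and 97.56% of counts. Genes passing edgeR's filterByExpr were scaled by TMM and tested with the quasi-likelihood F-test of edgeR 4.0.16 (limma 3.58.1, R 4.3.3), with Benjamini-Hochberg adjustment over all genes tested and a threshold of 0.05. Ribosomal and total libraries were fitted apart (28 libraries and 4 group means each), and contrasts across RNA types came from 1 fit of all 56 libraries. The fit of each RNA type was tested on simulated data for the comparison of female labelled knockouts with female controls. The fit of all 56 libraries was not tested on simulated data. Labels name separate mice, so p-values of the fits of 1 RNA type measure the spread between these mice. The fit of all 56 libraries had no term for the mouse and treated both libraries of a mouse as independent. Its p-values, for contrasts across RNA types, therefore leave out the pairing, which only the alternative with the mouse as a block takes in. No 2 of the 1540 pairs of libraries were identical (highest correlation of log2 counts 0.9865). Precision rests on 160313 to 3579221 counts per ribosomal library and 2427655 to 5848058 per total library.

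The members and lists were chosen with earlier results of these data known. Named were every called member where 10 or fewer were called, otherwise up to 5 with the largest rise and 5 with the largest fall at a mean of at least 5 CPM, and always the isoform pairs, the c-ring genes, complex II, Atpif1, Cox7a2l and Elavl1. Mouse numbers pair the ribosomal and total libraries, per the labels. Deviations of paired libraries from their group means were correlated over 6984 genes of at least 10 CPM, with a prior of 2 CPM. The mean was 0.081 in male labelled knockouts, −0.144 in male controls, 0.144 in female labelled knockouts and 0.043 in female controls. In these groups 3, 0, 4 and 1 of 7 ribosomal libraries correlated best with the total library of their own number. The values of male controls therefore do not back their numbers, and those of female controls hardly do. Alternatives were DESeq2 1.42.0, other scalings, no filter, other sets of libraries in the fit, the mouse as a block, the summed mitochondrially encoded mRNAs as a covariate, and leaving out single libraries, shallow ribosomal libraries, total libraries with many reads outside genes and, chosen after seeing the data, libraries with kidney transcripts.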

Additional observations from a re-analysis of the deposited data

Results flagged for a closer look

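Group values of the 27 named members were checked for a library far from the other 6 of its group by Dixon's test for 7 samples. Atp5o, which stands on more than 1 row, was left out of this check. Of 208 group values 19 stood apart, where chance gives about 1 in 20. Male control 20, with 704646 counts, accounted for many of them in ribosomal RNA. It was high, with the nearest other male control in brackets, at 4546 CPM for Atp5e (1985), 5819 CPM for Atp5g3 (3464), 313.8 CPM for Atp5h (186.3), 2698 CPM for Atp5k (1537) and 871.3 CPM for Cox7a2l (528.5). It was low at 265.1 CPM for Atp5c1 (387.2), 458.1 CPM for Cox7b (724), 387.9 CPM for Sdha (490.7) and 323.6 CPM for Uqcrc2 (442.4).

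In ribosomal RNA of the other groups, Sdhd stood at 148.4 CPM in male labelled knockout 6 (nearest 210.4). Female labelled knockout 5 had 6.504 CPM of Atp5g2 (nearest 15.22) and 409.8 CPM of Cox7a2l (nearest 604.5), and female control 19, with 422756 counts, had 308.3 CPM of Atp5h (nearest 215.4) and 969.1 CPM of Uqcrb (nearest 766.9). In total RNA, Atp5c1 stood at 531.4 CPM in male labelled knockout 12 (nearest 390.4) and Cox7a2l at 357 CPM in male control 26 (nearest 255.6), a library with 23.4% of reads outside genes. Female control 14, with 19.3% of reads outside genes, had 542 CPM of Cox7b (nearest 703.4), 25.34 CPM of Cox8a (nearest 53.65) and 483 CPM of Uqcr10 (nearest 625.3).

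Effects that differed between groups by a test of the difference itself were, for males minus females in ribosomal RNA, Sdhd at 1.05, Uqcrfs1 at 0.96, Cox7b at 0.76 and Sdhc at 0.67, and, for ribosomal minus total RNA in females, Cox7b at −0.84, Sdhc at −0.61 and Uqcr10 at −0.58, on the log2 scale of edgeR's test.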

How the results depend on the processing

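For the members named for the largest called differences in each comparison, no alternative that was run turned the direction of a call. Of the 175 calls over all comparisons, RLE size factors turned the sign of 0. Total counts without a composition factor turned 18, all between ribosomal and total RNA: 3 in male labelled knockouts, 3 in male controls, 5 in female labelled knockouts and 7 in female controls. Of these, Uqcrb, Cox6a2 and Cox6b1 in female labelled knockouts and Atp5f1 and Sdha in female controls were then called lower. Of the single-member values 549 stayed on their side of the threshold and 99 did not, and of the counts 189 stayed within 1.5 times and 40 moved. RLE size factors and leaving out the libraries with kidney transcripts, an alternative chosen after seeing the data, moved no count beyond 1.5 times. Of the single-member calls, 3 were lost with RLE size factors and 4 without those libraries. The libraries left out, with over 200 CPM of kidney transcripts, were male labelled knockout 1 in ribosomal RNA and male labelled knockout 6 in total RNA. Without a composition factor the counts of called members were 19 in ribosomal RNA of females, 1 and 2 in total RNA of females and males, and 1 between the sexes of controls in each RNA type. Without the filter on low counts they were 1 in ribosomal and 2 in total RNA of males, and 1 in ribosomal and 0 in total RNA between the sexes of controls. DESeq2 called 13 members in ribosomal RNA of females, 7 for males minus females and 1 between the sexes of controls. The 2 groups alone gave 2 in total RNA of males. All 56 libraries in 1 fit gave 2 and 17 in ribosomal RNA of males and females, 3 in total RNA of males, and 1 and 0 between the sexes of controls in ribosomal and total RNA.

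With the mouse as a replicate block, members called for the ribosomal minus total effect in females numbered 1, and no other count moved beyond 1.5 times, with 40, 41, 32 and 34 members called between ribosomal and total RNA of male labelled knockouts, male controls, female labelled knockouts and female controls and 0 for the ribosomal minus total effect in males. Without ribosomal libraries under 750000 counts, 6 were called for the ribosomal minus total effect in females and 2 between the sexes of controls in ribosomal RNA. Without the 5 total libraries above 19% of reads outside genes, 0 were called in total RNA of males, 8 for the ribosomal minus total effect in females and 1 between the sexes of controls in total RNA. With mitochondrially encoded mRNA as a covariate, 1 was called in ribosomal RNA of males and 0 for males minus females; the cause of these shifts was not tested.

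Leaving out each library in turn, 56 fits, gave 7 to 13 called members in ribosomal RNA of females, with 13 without female control 18 or male control 20, and 0 to 1 in ribosomal RNA of males, with 1 without male control 23. It gave 0 to 2 in total RNA of females and 1 to 10 in total RNA of males. Depth limits the low members most, since Atp5l, Atp5g2 and Atp5s averaged 11.1, 14.1 and 16.1 CPM in ribosomal libraries of as few as 160313 counts.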
